A study of Caenorhabditis elegans with 2 samples.

Results

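Early embryos of C. elegans gave 1636 nuclear CEH-36 peaks, of which 274 lay on short stretches of telomere-like DNA outside the introns of protein-coding genes, as defined here. CEH-36 is an Otx-class homeodomain protein with a known role in the fate of the chemosensory neurons AWC and ASE. Members were entries of the authors' optimal peak list, the entries that passed the irreproducible discovery rate procedure (IDR), which held 1662 entries, 26 of them mitochondrial. In a member, the window of 391 bp centred on the peak summit contained the telomere unit TTAGGC, or its reverse complement GCCTAA, at least 3 times. Its summit lay within 500 bp of the start of a protein-coding gene (100 peaks, called gene start peaks), in an exon (3 peaks) or in an intergenic region (171 peaks). Entries with a snoRNA gene within 200 bp or a tRNA gene within 500 bp were left out. The gene start class was assigned before exons and introns were considered, so it was not free of introns. Of its 100 summits, 58 lay inside a protein-coding gene and in no exon, 5 in an exon and 37 outside any protein-coding gene. The rule therefore left out only introns farther than 500 bp from a start, where the list held another 296 telomere-like repeat peaks.

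Chromatin immunoprecipitation followed by sequencing was done on whole embryos of strain OP620, which carries unc-119(tm4063) III and the transgene wgIs620. The transgene expresses CEH-36 with a GFP and FLAG tag at its C terminus, and the labels describe precipitation with an antibody to GFP, although their antibody field names ceh-36. The 2 biological replicates formed 1 group of pooled males and females at the early embryonic stage, 2 hours after synchronization by egg bleaching. No second genotype, untagged strain or other factor was analysed here, so classes of peaks were compared within the lists. The samples held whole embryos, so binding in fewer cells and weaker binding per cell cannot be told apart. Read depth is unknown from peak lists.

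Telomeres are the ends of linear chromosomes, built from many tandem copies of a short unit that protects the end from loss and from being treated as a break. In C. elegans that unit is TTAGGC, and imperfect copies of it also lie inside the chromosomes. Otx proteins bind the core TAATCC, or GGATTA on the other strand, and CEH-37, another Otx-class protein of C. elegans, is known to bind telomere DNA. The core TAATCC differs from the rotation TAAGCC of the unit by 1 substitution, T4G, with positions counted from 1 at the 5′ end of the core and the base of the core given before the position.

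The repeats around the summits were degenerate and differed in length. The 5 windows that follow reach 100 bp to each side of a summit and are shown for their range of repeat content, with exact units on either strand in capitals. They were read from the RefSeq WBcel235 genome at the ce11 coordinates of the lists, plus strand. The zipt-2.3 window belongs to one of the strongest gene start peaks and the Y75B8A.6 window to the strongest intergenic peak. The nlp-68 window is that of a peak with 4 units and a TAATCC core, the txt-14 window that of an intergenic peak with 31 units and no core. The F09E10.1 window is that of an intergenic candidate that was not in the optimal list.
zipt-2.3 gene start peak, chrII:13715405-13715605: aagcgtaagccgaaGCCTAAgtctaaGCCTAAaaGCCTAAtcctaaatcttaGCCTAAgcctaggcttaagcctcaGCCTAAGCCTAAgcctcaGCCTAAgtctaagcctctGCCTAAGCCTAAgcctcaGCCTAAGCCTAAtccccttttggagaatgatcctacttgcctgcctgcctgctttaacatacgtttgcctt
Y75B8A.6 intergenic peak, chrIII:12131839-12132039: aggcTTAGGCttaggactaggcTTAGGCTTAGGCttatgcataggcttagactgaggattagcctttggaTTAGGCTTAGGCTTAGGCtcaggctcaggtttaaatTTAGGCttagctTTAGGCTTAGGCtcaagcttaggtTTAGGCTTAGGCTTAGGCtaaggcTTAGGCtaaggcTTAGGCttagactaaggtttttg
nlp-68 intergenic peak, chrIII:10539784-10539984: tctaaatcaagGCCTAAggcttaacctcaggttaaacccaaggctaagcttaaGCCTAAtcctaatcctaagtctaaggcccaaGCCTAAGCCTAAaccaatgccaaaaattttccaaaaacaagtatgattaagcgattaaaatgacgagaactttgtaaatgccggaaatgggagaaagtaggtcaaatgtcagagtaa
txt-14 intergenic peak, chrV:18581518-18581718: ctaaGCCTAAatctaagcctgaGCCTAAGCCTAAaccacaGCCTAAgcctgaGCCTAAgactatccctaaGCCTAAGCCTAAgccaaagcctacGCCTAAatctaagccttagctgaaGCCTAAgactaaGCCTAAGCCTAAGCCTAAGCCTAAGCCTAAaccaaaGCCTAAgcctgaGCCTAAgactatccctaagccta
F09E10.1 candidate, chrX:1509986-1510186: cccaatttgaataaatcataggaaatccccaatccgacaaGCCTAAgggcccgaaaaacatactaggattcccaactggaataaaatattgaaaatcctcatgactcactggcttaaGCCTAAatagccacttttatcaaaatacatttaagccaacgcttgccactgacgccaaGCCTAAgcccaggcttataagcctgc
The pooled signal values of these summits, in the order shown, were 392, 467, 145, 232 and 86.1. In the 391 bp windows the numbers of units were 16, 27, 4, 31 and 3. In the zipt-2.3 and nlp-68 windows a unit GCCTAA runs on into tcc, which makes the core TAATCC. The Y75B8A.6 and txt-14 windows overlapped an exon of an annotated noncoding RNA, and the other windows held no annotated exon.

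At least 1 unit lay in the 391 bp window at the summit in 41.6% of the 1636 nuclear peaks and in 13.6% of equally wide windows placed 500 bp to its left. The shares with 3 or more units were 34.9% and 2.87%. Members held a median of 13 units, from 3 to 35. The rule asked for units anywhere in this window, so the contrast of members with bins beyond it partly follows from the rule. The place of units within the window was not set by the rule. In gene start peaks a unit lay in the 50 bp to the right of the summit in 93%. Between 150 and 200 bp to the right the share was 23%, and between 450 and 500 bp it was 3%. In intergenic peaks the shares were 95.3%, 25.1% and 1.75%.

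**Figure D1:**
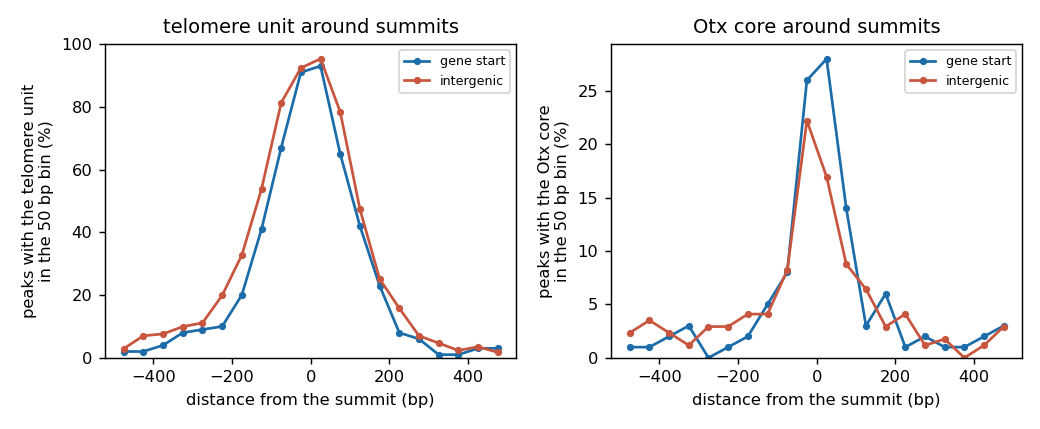
Share of peaks (y axis, %) with a telomere unit (left) or the Otx core TAATCC (right) in each 50 bp bin, by distance from the summit (x axis, bp), for 100 gene start and 171 intergenic peaks. Both features were most frequent beside the summit, where 26% of gene start and 22.2% of intergenic peaks held the core in the 50 bp to the left and 28% and 17.0% in the 50 bp to the right.

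Near forms of the unit accompanied the exact ones. Each member held on average 13.4 exact units in the 391 bp window. The most frequent of the 18 forms that differ from the unit by 1 base was TTAAGC (G4A, counted from the 5′ end of TTAGGC), at 3.08 copies per member, followed by CTAGGC (T1C) at 1.89 and TCAGGC (T2C) at 1.75. The form TTAGGA (C6A), which makes a GGATTA core when TTA follows it, was the 7th, at 0.901 copies per member. Per 100 exact units it occurred 6.75 times in members and 6.35 times in the 335 candidates, the entries of the pooled list that met the same criteria for repeat, position and small RNA genes but were not in the optimal list. In 44 members, 18 at gene starts and 26 intergenic, units lay on both strands.

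Intergenic and gene start peaks had overlapping signal values. The signal value is a score per entry that the authors' peak caller gave, and it was used only within a list. In the pooled list the 100 gene start peaks had a median of 127, quartiles of 103 and 192, and extremes of 87.2 and 396. The 171 intergenic peaks had a median of 147, quartiles of 115 and 212, and extremes of 87.6 and 467. The exon peaks, in C38C3.4, nlp-6 and unc-60, had values of 217, 90.1 and 88.7. Intergenic medians were the higher in both replicates, at 65.6 against 58.1 in replicate 1 and 80.7 against 72.7 in replicate 2. The ratio of the medians was 1.16 in the pooled list, 1.13 in replicate 1 and 1.11 in replicate 2, an SD of 0.0133 between replicates (n = 2). No test was made of this ratio, because the optimal list was itself chosen by signal. It fell to 0.959, with gene start peaks the higher, when only the stronger part of the list was kept.

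Intergenic peaks also had the higher median number of units. The median was 14 units in intergenic and 11 in gene start peaks, and 10 or more units were found in 74.9% of intergenic and 61% of gene start peaks. Because units defined membership, these are descriptions. An uninterrupted run of 4 or more adjacent units was present in 59 of 171 intergenic peaks (34.5%) and in 22 of 100 gene start peaks (22%). Runs are made of the same units, so this too is a description. The longest run, 15 adjacent units, was in a gene start peak 452 bp downstream of the start of T05A8.3, and the next, of 14, in the intergenic peak nearest to R06C1.4. The T05A8.3 peak had a pooled signal of 221 and no core.

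Signal values were higher where there were more units. Across the 274 members the Spearman correlation of units and pooled signal was 0.604, and it was 0.585 and 0.543 with the signals of replicates 1 and 2 over the 273 members found in both lists. Within classes it was 0.527 at gene starts and 0.616 in intergenic regions, and it was 0.303 in the 335 candidates. These are descriptions over entries that share the same 2 libraries. Median pooled signal was 102 in the 24 members with 3 to 5 units, 118 with 6 to 9, 130 with 10 to 14, 178 with 15 to 19 and 253 in the 41 members with 20 or more.

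**Figure D2:**
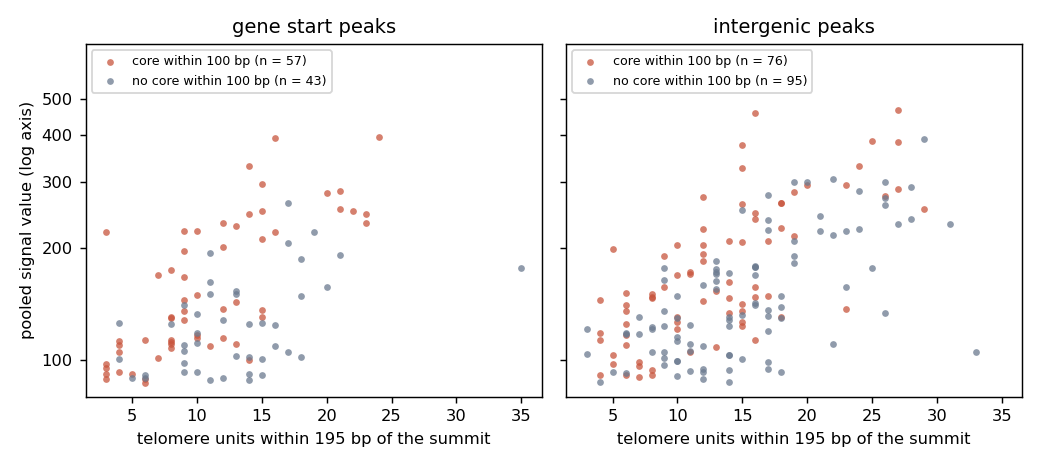
Pooled signal value (y axis, log scale) against telomere units in the 391 bp window (x axis) for each gene start peak (left, n = 100) and intergenic peak (right, n = 171), coloured by the presence of the TAATCC core within 100 bp. Peaks with more units had higher signals in both classes, with a wide spread at each number of units and exceptions such as the gene start peak with 35 units, which had a signal of 177.

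The strongest gene start peak lay 330 bp downstream of the start of col-47, a cuticle collagen gene, on chromosome I (746084 to 746354), in an entry that also overlaps the gene model of col-46. Its signal was 396 in the pooled list, 168 in replicate 1 and 232 in replicate 2, with 24 units and a core. The peak 374 bp downstream of the start of zipt-2.3, which encodes a zinc transporter of the ZIP family, had signals of 392, 165 and 222, with 16 units and a core. The other 8 of the 10 strongest gene start peaks had pooled signals from 250.2 to 330 and lay at F23C8.13, nlp-21 (a neuropeptide-like protein gene), oac-30 (an O-acyltransferase homolog), scl-20, prhg-1, col-42 (a cuticle collagen), Y75B8A.6 and ptr-16 (a patched-related protein). Every one of the 10 except that at prhg-1 held the core.

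The strongest intergenic peak lay 1596 bp upstream of Y75B8A.6, in the locus that also held the gene start peak of that gene. Its signals were 467 in the pooled list, 231 in replicate 1 and 238 in replicate 2. The peak 3685 bp upstream of frpr-19, a gene of the FMRFamide peptide receptor family, had signals of 459, 194 and 266. The remaining 8 of the 10 strongest ran from 300.2 to 390 and were nearest to srz-23 (a chemoreceptor gene), Y22D7AR.2 (2 peaks), Y46G5A.36, tbx-34 (a T-box gene), R06C1.4, fipr-29 and grdn-1 (a girdin homolog). Of the 10 intergenic peaks, those nearest to srz-23 and grdn-1 and the weaker of the pair at Y22D7AR.2 lacked the core. Nearest starts were up to 13020 bp away in this set, so proximity alone links these peaks to the genes.

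In neither class was the peak with most units the strongest. The gene start peak with most units, 35, lay 330 bp upstream of Y43F8B.3 and had signals of 177 in the pooled list, 97.3 in replicate 1 and 85.5 in replicate 2. The intergenic peak with most units, 33, lay 956 bp upstream of tyr-5, a tyrosinase gene, and had signals of 105, 33.2 and 68.4. Neither held the core. R03H10.2, with 23 units and the core, and txt-14, with 31 units and no core, had pooled signals of 246 and 232. The remaining peaks of the 3 with most units per class were among the strongest. These were col-47, with 24 units and a signal of 396, and srz-23, with 29 units and 390.

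The core TAATCC was found within 100 bp of the summit in 134 of 274 members (48.9%, exact 95% interval 42.8 to 55.0). The same was true of 41.9% of all 1636 nuclear peaks and of 46.7% of the 798 nuclear peaks outside repeats and small RNA genes. In the 296 intronic repeat peaks the share was 53.7%. The share in members was therefore close to that of other CEH-36 peaks. Of the candidates, 25.4% held the core (20.8 to 30.4). Gene start peaks held the core in 57 of 100 (57%) and intergenic peaks in 76 of 171 (44.4%). The odds ratio was 1.65 (0.978 to 2.81), with a raw p of 0.0587 and a Benjamini-Hochberg adjusted p of 0.147 by the two-sided Fisher exact test, so the difference did not pass.

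Within members the core was more frequent at the summit than beside it. It lay within 100 bp of the summit in 48.9% and in an equally wide window placed 500 bp to the left in 7.66%. The core was at the summit only in 124 members and solely in the flank in 11, which gives a ratio of 11.3. At gene starts 54 peaks had it at the summit only and 3 in the flank only (ratio 18), and in intergenic regions the numbers were 69 and 8 (ratio 8.63). These ratios are descriptions with no test. The rule asked for repeat at the summit and made no demand on the flank, and many cores overlap a unit.

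Most cores were part of the repeat rather than separate from it. A core was called in phase when it kept the 6 bp register of a unit on the same strand within 60 bp. Of 205 cores in members, 193 had such a unit and 180 (87.8%) were in phase, and they lay in 121 of the 134 members with a core. A core that follows GCC directly overlaps the unit GCCTAA and is in phase by construction, and there were 106 of these (51.7%). Of the other 99, 74 (74.7%) were in phase. Outside GCC contexts, 49 of 56 cores were in phase in intergenic peaks (87.5%) and 24 of 42 at gene starts (57.1%), and 22 of 47 (46.8%) in candidates. The intronic repeat peaks were close to members, with 88.5% of 234 cores in phase and 85 of 112 (75.9%) outside GCC contexts. In the peaks outside repeats 4 of 574 such cores met the definition, which requires a unit nearby. The windows of 51 bp that follow show a core in phase, cores in tandem and a core on the other strand, with the core in capitals.
oac-30 gene start peak, core in phase, chrII:1266571-1266621: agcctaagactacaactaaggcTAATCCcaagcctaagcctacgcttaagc
frpr-19 intergenic peak, cores in tandem, chrIV:1785318-1785368: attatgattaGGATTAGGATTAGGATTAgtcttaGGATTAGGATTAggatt
Y75B8A.6 gene start peak, core on the other strand, chrIII:12130513-12130563: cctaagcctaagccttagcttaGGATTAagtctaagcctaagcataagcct
In the oac-30 window the core stands in the register of the GCCTAA units that flank it. In the frpr-19 window GGATTA is itself the tandem unit, with 5 copies in capitals. In the Y75B8A.6 window the core GGATTA lies on the strand opposite to the GCCTAA units, so no register was defined for it. This peak is 192 bp upstream of the gene start and had a pooled signal of 251.

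The share of members with the core was highest among those with few units. Among members with 3 to 5 units 17 of 24 had it (70.8%), against 42 of 147 candidates with the same number of units (28.6%). With 6 to 9 units the shares were 58.3% and 22.0%, and with 20 or more units they were 17 of 41 members (41.5%) and 0 of 8 candidates. At gene starts 10 of 13 peaks with 3 to 5 units and 7 of 10 with 20 or more had the core. In intergenic regions the numbers were 7 of 11 and 10 of 31. Members with the core had a median of 12 units and a median signal of 148, and those without it 14 units and 128. The order was the same at gene starts (136 with the core, 118 without) and in intergenic regions (153 and 134), and in both replicates for all members (67.8 against 60.1 in replicate 1, 84.7 against 71.9 in replicate 2).

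Units and core were next set against membership of the optimal list. All optimal entries are the strongest 1662 of the pooled list, and 5.46% of the 29973 nuclear pooled entries were in it. Among pooled repeat entries outside introns with 3 to 5 units, 17 of 59 with the core were in the optimal list (28.8%, 17.8 to 42.1) and 7 of 112 without it (6.25%, 2.55 to 12.5). With 6 to 9 units, 35 of 64 with the core (54.7%, 41.7 to 67.2) and 25 of 128 without it (19.5%, 13.1 to 27.5) were in the list. With 10 to 14 units the shares were 74.5% and 62.7%, with 15 to 19 units 93.75% and 86.0%, and with 20 or more units 17 of 17 and 24 of 32. In every bin of units the share was higher with the core than without it. Within classes the order was reversed in gene start entries with 15 to 19 units (77.8% of 9 and 85.7% of 14). Class intervals were wide, such as 10.7 to 44.9 and 2.22 to 19.2 in intergenic entries with 3 to 5 units. For gene start entries with 6 to 9 units they were 32.9 to 67.1 and 8.60 to 34.1. These shares were not tested, and their intervals cover counting of entries only. Gene start and intergenic entries had 45.9% (100 of 218) and 50.3% (171 of 340) in the optimal list (odds ratio 0.838, 0.587 to 1.19). Signal chose the optimal list and that list defined the members, so this too is a description. With gene starts limited to 250 bp the shares were 26.3% of 57 gene start entries, which is 15 entries, and 50% of 400 intergenic ones. The difference was smaller in every other setting run for it.

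**Figure D3:**
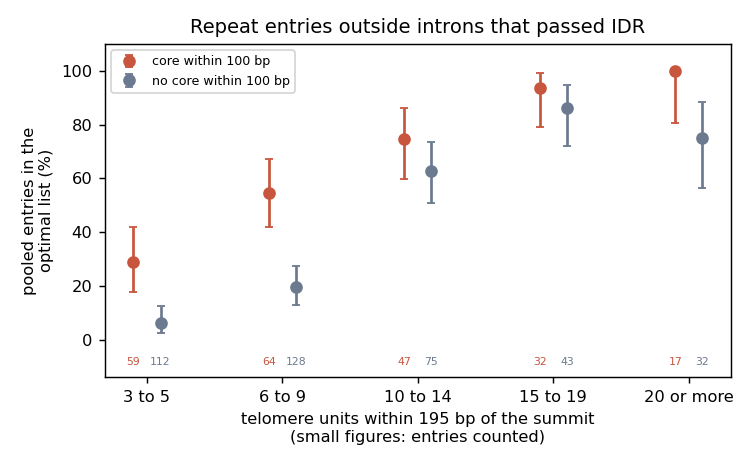
Share of pooled repeat entries outside introns that were in the optimal list (y axis, %) by the number of telomere units in the 391 bp window (x axis), for entries with and without the TAATCC core within 100 bp; bars are exact 95% binomial intervals that cover counting of entries only. With 3 to 5 units the shares were 28.8% with the core and 6.25% without it.

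Counted from the genome rather than from the lists, most arrays of 8 or more units had a peak and most shorter ones had none. An array was 3 or more units with starts at most 50 bp apart. Of 803 arrays outside introns by the same rule, 326 (40.6%, 37.2 to 44.1) had an optimal summit inside them or as close as the window above reaches, beside 41.4% of all 1708 nuclear arrays and 42.1% of the 905 intronic ones. The share was 14.5% for arrays of 3 or 4 units, 34.4% for 5 to 7, 58.3% for 8 to 11, 85.9% for 12 to 15 and 95.7% for 16 to 23. Longer arrays also offer a longer target, with a median length of 42 bp for 3 or 4 units and 247 bp for 16 to 23. At gene starts 39.7% of 290 arrays and in intergenic regions 42.9% of 485 arrays had a summit, and in exons 3 of 28. The share for arrays of 3 or 4 units depended on how far apart units could be, at 40% with 25 bp and 7.53% with 100 bp, whereas that for 12 or more units was 84.5%, 79.5% and 80.3% with 50, 25 and 100 bp.

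**Figure D4:**
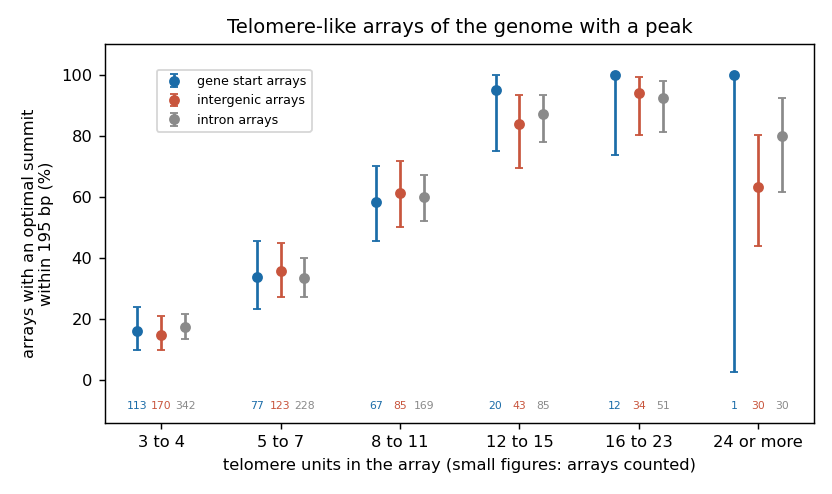
Share of telomere-like arrays of the genome with an optimal summit (y axis, %) by the number of units in the array (x axis), for gene start, intergenic and intron arrays; bars are exact 95% binomial intervals over arrays. The shares of all classes were higher with more units up to 12 to 15 units, and the lower value for intergenic arrays of 24 or more units includes 11 arrays within 1 kb of a chromosome end, where no optimal summit lay.

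The telomeres themselves gave no optimal peak. The last 1000 bp of the 12 chromosome ends held from 23 to 101 units, and 9 ends had an entry in the pooled list. No end had one in the optimal list, and the nearest member was 16220 bp from an end. Of 31 arrays of 24 or more units outside introns, 11 lay within 1 kb of an end and had no optimal summit, and the other 20 all had one. How reads that match many places were handled is unknown here, and its part in this result was not tested.

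Most members were on chromosome arms, as were most of the arrays they sit on. An arm was the outer 25% of a chromosome at either end. The summit was on an arm in 250 of 274 members (91.2%), beside 63.8% of all nuclear peaks and 50.3% of those outside repeats and small RNA genes. Of arrays outside introns, 91.7% of those with an optimal summit and 87.6% of those without were on arms. The difference between gene start peaks (94%) and intergenic peaks (89.5%) did not pass in Fisher's exact test (odds ratio 1.84, 0.669 to 5.87, adjusted p = 0.337).

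Members were in the list that passed IDR, but this did not ensure that each had an entry in both replicate lists. Of the members 273 of 274 overlapped an entry in each replicate list, beside 296 of 296 intronic repeat peaks and 796 of 798 peaks outside repeats and small RNA genes, and the Spearman correlation of the replicate signals was 0.736. The summits of the 2 replicates were a median of 23 bp apart. Members that overlapped by 1 bp or more any of the 1662 strongest entries of each replicate numbered 215 (78.5%), beside 68.6% of all nuclear peaks, 80.7% of intronic repeat peaks and 55.0% of peaks outside repeats and small RNA genes. Intergenic peaks reached 81.9% (140 of 171) and gene start peaks 74% (odds ratio for gene start 0.631, 0.335 to 1.20). Because signal also chose the optimal list, this difference is given as a description. The direction of this difference turned with gene starts out to 1000 bp and when replicate 1 alone chose the peaks.

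**Figure D5:**
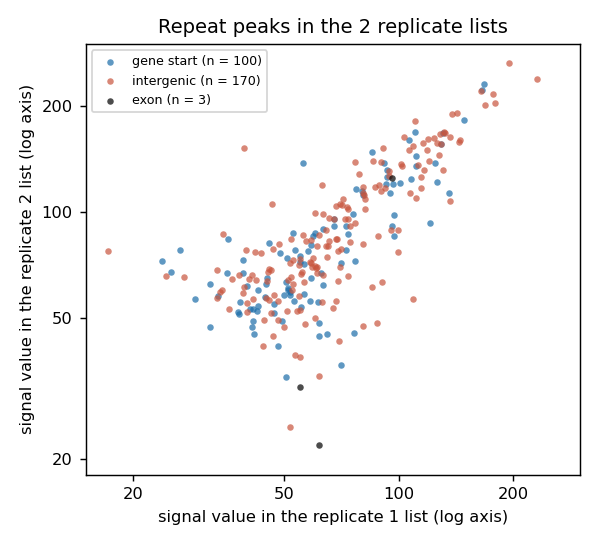
Signal value in the replicate 2 list against that in the replicate 1 list (both axes logarithmic) for the 273 repeat peaks found in both. Points of the gene start and intergenic classes overlap along the diagonal, and the exon peak at nlp-6 and the intergenic peak at znf-782 stand farthest from it in opposite directions.

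The largest rank differences between replicates were among weak peaks. The intergenic peak near znf-782, a zinc finger gene, ranked 18609 in replicate 1 (signal 17.1) and 700 in replicate 2 (77.9). The gene start peak of fipr-17 had signals of 23.8 and 72.7, and the intergenic peak nearest to fmil-1 24.4 and 65.8. In the other direction, the exon peak of nlp-6 had signals of 61.8 and 21.9, the intergenic peak of nhr-121, a nuclear hormone receptor gene, 51.7 and 24.6, and the exon peak of unc-60, which encodes the actin regulator cofilin, 55.1 and 32.0. Pooled signals of these peaks were between 88.7 and 101. The peak missing from a list was an intergenic one near gln-3, with 19 units and no core, which had no entry in replicate 2, a signal of 104 in replicate 1 and a pooled signal of 208.

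Gene start repeats lay on both sides of the start and on both strands. Of 100 summits, 39 lay upstream of the nearest start, at a median of 384 bp, and 61 downstream, at a median of 371 bp. The core was present in 59.0% of the upstream and 55.7% of the downstream peaks. The strand with most TTAGGC units was that of the gene in 50 of 96 peaks (52.1%, 41.6 to 62.4, exact two-sided binomial test, p = 0.760), and 4 were left out for ties or for starts on both strands. Intergenic summits were from 527 to 14771 bp from the nearest start, a median of 2260 bp, and 132 of the 171 were upstream of it and 39 downstream.

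The 100 gene start peaks lay within 500 bp of the starts of 102 of 19985 protein-coding genes (0.51%). Of 156 cuticle collagen genes, which build the exoskeleton, 4 had such a start (2.56%), namely col-42, col-47, col-49 and col-109. Of 269 nuclear hormone receptor genes 4 did (nhr-74, nhr-225, nhr-234 and nhr-256), and of 1205 chemoreceptor genes 4 did (srg-16, sri-38, sri-39 and srw-85). No start of the 78 cytosolic ribosomal protein genes, the 72 histone genes or the 17 listed telomere maintenance genes lay that close to a member. With a share of 0.51% over all genes, counts of 0 in lists this small do not show avoidance. Of these genes 12, 9 and 1 had a start within 500 bp of some optimal peak, beside 475 of all 19985 protein-coding genes. These counts were small and no list was tested.

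Homeobox genes are the family of ceh-36. The list used here, made by gene name and not complete for the family, held 91 genes, and 1 had a start beside a member. The peak 444 bp upstream of ceh-9 had signals of 126 in the pooled list, 61.2 in replicate 1 and 55.5 in replicate 2, with 15 units and no core. Among the listed genes, intergenic peaks were nearest to ceh-45 (1445 bp upstream, pooled signal 149, 17 units, with the core) and to cog-1 (8731 bp upstream, pooled signal 133, 15 units, no core).

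Peaks just inside and just outside the limits of the rule overlapped in signal. The 7 members with 3 units had a median pooled signal of 97.9 (89.4 to 220.03), and the 11 with 4 units one of 109.9. Peaks that met the other criteria with 2 units numbered 3, with signals from 89.1 to 350, and those with 1 unit numbered 46, with a median of 99.9. Of members between 400 and 500 bp from a start there were 37, with a median signal of 128, and the repeat peaks from 501 to 600 bp away were 14 intergenic members, with a median of 148, and 10 intronic peaks outside the rule, with a median of 174.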

How the data were processed

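Peak lists on ce11 from 2 replicates of 1 group were used: 1 list per replicate, the pooled list (30000 entries each) and the optimal list. Per the file descriptions deposited with them, the lists derive from alignments of the replicates and a control. The sources used here do not give the aligner, the peak caller or the handling of repeated sequence. In the deposited lists, column 7 is a signal value and column 9 the −log10 of a q-value, both from the authors' peak caller. Column 10 holds the summit's distance from the entry's start. Lists on ce10 were not used here.

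Summits were placed on the WBcel235 genome and the Ensembl release 115 annotation, with 0 entries past a chromosome end. Exons, introns and intergenic regions were those of protein-coding genes, a choice made after all biotypes had given 291 members and this definition the stated 274. Fisher exact tests of gene start against intergenic peaks were adjusted over 5 comparisons by the Benjamini-Hochberg method (threshold 0.05), and their differences across settings are in percentage points. Among the 5, runs of units, the share among the strongest of both replicates and membership of the optimal list are given as descriptions. Units chose the members, and signal chose the optimal list. The core at the summit against the flank is also given as a description. Neighbouring entries are not replicates, and p-values and intervals describe these lists, not the spread between cultures. The 274 members fell into 249 loci when those within 2000 bp were joined. Intervals cover counting error only, at 95%.

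Members and gene lists were chosen with earlier results of these data known. Arrays, register of the core, forms of the unit, unit bins and the windows shown were chosen after the data had been seen. Genes named were those at the 10 strongest gene start and intergenic peaks, up to 5 exon peaks, in each direction the 3 whose ranks differed most between replicates, 3 with most units per class, and listed telomere maintenance and homeobox genes. The peaks at gln-3 and T05A8.3 and the windows of nlp-68 and F09E10.1 were named after their values were seen. Python 3.11.15, numpy 2.4.6, scipy 1.17.1 and matplotlib 3.10.9 were used, and the counting and tests were checked on simulated data. Alternatives were other windows, unit minima, gene start distances, motif windows, flanks, arms, runs and overlaps, the stronger part of the list, 1 replicate alone, 1 entry per locus, small RNA genes kept, any transcript start and all biotypes.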

Additional observations from a re-analysis of the deposited data

How the results depend on the processing

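Peak lists carry no depth, so precision is known only over entries, and repeated sequence may be placed differently by other aligners. Of the alternatives run, 93 kept both direction and side of the threshold, or moved values by less than their spread. Another 14 moved values further, 5 reversed the direction and 1 gave a stronger difference. The 93 include a setting without chromosome ends, which dropped none of the 274 members and so could not change a value. The summit-to-flank ratio of the core stayed between 7.28 and 16. The cause of the changes below was not tested.

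The difference in the share among the strongest of both replicates (main -7.87 points) turned to 1.31 with gene starts out to 1000 bp, to 1.77 in the stronger part of the list, where nearly all peaks had the property (100% and 98.2%), and ranged from -1.92 without replicate 1 to 0.380 without replicate 2. The difference in the share on arms (main 4.53 points) was -0.415 with wider arms. The difference in pooled repeat entries in the optimal list (main -4.42 points) was -23.7 with gene starts within 250 bp.

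The ratio of intergenic to gene start median signal (main 1.16) was 1.13 with 5 or more units, 1.14 with units within 100 bp, 1.05 and 1.02 with gene starts out to 250 and 1000 bp, 0.959 in the stronger part of the list, 1.18 with 1 entry per locus, 1.12 with any transcript start and 1.12 with all biotypes, the last chosen after seeing the data. It ranged from 1.09 to 1.11 when either replicate alone chose the peaks. Members numbered 167 in the stronger part of the list and 257 with either replicate alone. The array distances of 25 and 100 bp were also added after seeing the data. They gave 51.6% and 34.9% of arrays outside introns with an optimal summit (main 40.6%), and 40% and 7.53% of arrays of 3 or 4 units (main 14.5%).

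No paired analysis was possible because the study has 1 group.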

Other observations

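Members were spread unevenly over chromosomes, with 62 on I, 65 on II, 45 on III, 32 on IV, 59 on V and 11 on X. The telomere-like arrays outside introns were uneven too, at 146, 181, 130, 126, 180 and 40 in the same order. The share of telomere-like arrays outside introns that had an optimal summit was 52.7% of 146 on chromosome I and 31.0% of 126 on chromosome IV, and between 35% and 40.3% on the others. These shares were not tested.

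The summit lay in an exon of an annotated noncoding RNA gene in 38 of 274 members (13.9%), 11 at gene starts and 27 intergenic. Among the 171 intergenic peaks that share was 15.8%, and among the 100 gene start peaks 11%. The share over all nuclear peaks was not counted, so these values do not set members apart from other peaks.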
